A study of Mus musculus with 4 samples.

Results

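The genes described here are 9 genes used as markers of macrophages, monocytes and leukocytes at large: Tyrobp, Fcer1g, Fcgr1, Itgam, Csf1r, Cd68, Cx3cr1, Lyz2 and Ptprc. They were chosen by name, and all 9 were among the 23284 gene symbols of the files. Messenger RNA was sequenced from stromal cells of the whole mouse large intestine, sorted as living cells (7AAD-negative) positive for podoplanin and negative for CD45, CD31 and EpCAM. The 4 groups were C57BL/6J IL-10 knockout (KO), C57BL/6J wild type (WT), BALB/c Rag2 KO and BALB/c WT, with 1 library each. Ages, housing and the number of animals per library are not given in the labels, and the KO alleles are named only as IL-10 KO and Rag2 KO. Replicate error cannot be measured from single libraries and no test was made, so "higher" and "lower" describe these libraries alone.

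Macrophages and monocytes are phagocytes of the myeloid lineage. In the colon, circulating monocytes enter the wall and mature into resident macrophages, a process that depends on the receptor for colony-stimulating factor 1 and on IL-10 signals that restrain inflammatory output. Several of these genes are shared with other leukocytes: neutrophils carry Tyrobp, Fcer1g, Itgam and Lyz2, natural killer cells carry Tyrobp and Fcer1g, and Ptprc (CD45) marks nearly all leukocytes, lymphocytes included.

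Sequence upstream of the genes is shown for Fcgr1, the gene with the greatest fold of FPKM between libraries (resting on 3 fragments in the lowest), and for Lyz2, the gene with the highest level. In both windows, the 250 bases before the RefSeq start on the gene's own strand (GRCm38.p6), capitals mark matches to letter patterns searched on both strands. The patterns were GAGGAAGT, a site of the myeloid factor PU.1, and GGAAGT, a core of ETS factor sites that reads ACTTCC on the other strand and lies within the longer pattern.
Fcgr1, chr3:96293970-96294219, minus strand: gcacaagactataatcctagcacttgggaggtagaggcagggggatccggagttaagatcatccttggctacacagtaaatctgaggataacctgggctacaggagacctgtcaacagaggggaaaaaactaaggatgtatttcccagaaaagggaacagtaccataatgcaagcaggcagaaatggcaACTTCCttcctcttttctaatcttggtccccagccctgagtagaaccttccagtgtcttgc
Lyz2, chr10:117282273-117282522, minus strand: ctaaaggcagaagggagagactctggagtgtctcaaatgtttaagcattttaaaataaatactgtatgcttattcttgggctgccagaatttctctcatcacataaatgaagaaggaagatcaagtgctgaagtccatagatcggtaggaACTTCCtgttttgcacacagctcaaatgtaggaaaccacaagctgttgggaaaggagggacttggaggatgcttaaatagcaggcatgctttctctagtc
The ETS core had its first base 61 bases before the start in the Fcgr1 window and 100 bases before it in the Lyz2 window. RefSeq windows were used for 7 of the 9 genes (8 windows, Ptprc having 2). The ETS core was found for 3 of the 7 genes (in 4 of 8 windows, those of Ptprc overlapping and sharing a site) and in 19.7% of all 32851 windows of this length, and GAGGAAGT in 0 of 8 and in 2.44%. A match of letters is not evidence of binding, and a missing match says only that these letters are not in this window.

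Levels are given in FPKM, which scales the fragments of a gene by transcript length and by library size. Levels of different genes can be set side by side only with caution, since Gapdh had 0.349 FPKM or less in every library. Low FPKM values lie on steps of whole fragments, which put the depth at about 8.41e+06 fragments in IL-10 KO, 8.75e+06 fragments in C57BL/6J WT, 9.71e+06 fragments in Rag2 KO and 9.98e+06 fragments in BALB/c WT. Fibroblast markers were present in every library, with 0 of 16 listed at 0 and summed levels of 17238 FPKM in IL-10 KO, 18247 in C57BL/6J WT, 15692 in Rag2 KO and 16658 in BALB/c WT. Il10 transcript did not check the IL-10 KO label, since whole-gene values do not show a partial deletion: it had 129.9 FPKM in IL-10 KO and 3.33 FPKM in C57BL/6J WT. Rag2 was listed at 0 in every library but Rag2 KO, where it had 0.712 FPKM, and IL-10 KO and Rag2 KO here mean the libraries labelled so. Xist had 44.9 FPKM in IL-10 KO and 23.02 FPKM in C57BL/6J WT, and Y-linked Ddx3y had 0.0269 FPKM in IL-10 KO and 16.9 FPKM in C57BL/6J WT, so the C57BL/6J WT library held transcripts of both kinds. Rag2 KO and BALB/c WT had 0.105 and 0.0509 FPKM of Xist and 31.5 and 36.3 FPKM of Ddx3y. Sex-linked transcripts thus differed along with strain and with the IL-10 label, and their part in the results cannot be told apart from these. In bulk libraries, more cells of a type and more RNA per cell cannot be told apart.

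The 9 genes were highest in the IL-10 KO library and lowest in the C57BL/6J WT library without exception. For 8 of them the Rag2 KO library came second with BALB/c WT next, while Cd68 had these 2 in the opposite order. Together the 9 genes summed to 931 FPKM in IL-10 KO and 115 FPKM in C57BL/6J WT, and to 491 FPKM in Rag2 KO and 229 FPKM in BALB/c WT. That was 0.192%, 0.0244%, 0.105% and 0.0513% of all FPKM in those libraries. Lyz2 made up a large part: without it the sums were 476, 50.1, 194 and 94.4 FPKM in the same order.

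**Figure D1:**
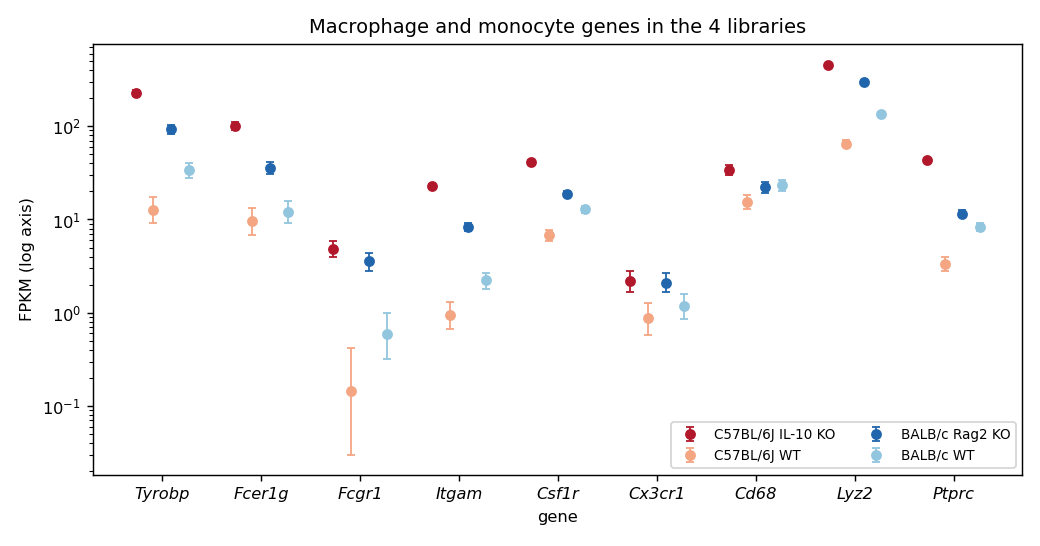
FPKM (log axis) of the 9 genes in the 4 libraries. Points are single libraries, and bars are 95% Poisson intervals of the estimated fragments, which cover counting error only. IL-10 KO is highest and C57BL/6J WT lowest for each gene, from 455 FPKM of Lyz2 in IL-10 KO to 0.144 FPKM of Fcgr1 in C57BL/6J WT.

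The library labelled IL-10 KO, in which Il10 transcript was higher, was compared with C57BL/6J WT. On the scale of log2(FPKM + 1), 8 of the 9 genes were at least 2-fold higher in IL-10 KO (10.1% of the 12790 genes tested were) and 0 were lower (3.82%). The median log2 ratio was 2.79, against -0.0018 over all genes tested. Of the 9, Fcgr1, Itgam and Cx3cr1 passed the filter of 1 FPKM through the IL-10 KO library alone. In the comparison of Rag2 KO with BALB/c WT, 5 of the 9 were at least 2-fold higher (4.42% of 12336 genes) and 0 lower (2.03%). There the median was 1.13, against -0.0041 over all genes tested, and Fcgr1 passed the filter through the Rag2 KO library alone. 

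The adaptor genes come first. Tyrobp (chromosome 7, 30413782 to 30417582) encodes DAP12, an adaptor whose ITAM motif passes signals from activating receptors such as TREM proteins to the kinase SYK. It had 228 FPKM in IL-10 KO and 12.8 FPKM in C57BL/6J WT, and 92.2 FPKM in Rag2 KO and 33.9 FPKM in BALB/c WT. Its log2 ratio was 4.06 in the IL-10 comparison, exceeded by 58 of the 12790 genes tested, and 1.42 in the Rag2 comparison, exceeded by 303 of 12336. With nothing added to FPKM the folds were 17.9 (95% counting interval 12.98 to 25.2) for IL-10 KO and 2.72 (2.198 to 3.38) for Rag2 KO. These intervals are exact binomial intervals on the estimated fragments and leave out any difference between animals.

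Fcer1g (chromosome 1, 171229572 to 171234349) encodes the FcR gamma chain, the other ITAM adaptor, which pairs with Fc receptors including the product of Fcgr1. Its levels were 100.01 FPKM in IL-10 KO and 9.66 FPKM in C57BL/6J WT, and 35.7 FPKM in Rag2 KO and 12.03 FPKM in BALB/c WT. The log2 ratios were 3.24 and 1.496 for the 2 comparisons. Fcer1g therefore stood apart from its wild type by a fold of 10.4 (7.44 to 14.8) in IL-10 KO and 2.97 (2.18 to 4.10) in Rag2 KO. In BALB/c WT, Tyrobp had 2.82 times the FPKM of Fcer1g, in Rag2 KO 2.58 times and in IL-10 KO 2.28 times, whereas in C57BL/6J WT it had 1.32 times. Tyrobp thus exceeded Fcer1g in all 4 libraries.

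Fcgr1 (chromosome 3, 96282909 to 96293969) encodes CD64, the high-affinity IgG receptor, whose product separates macrophages and their monocyte precursors from most dendritic cells. It had 4.85 FPKM in IL-10 KO and 0.144 FPKM in C57BL/6J WT, and 3.55 FPKM in Rag2 KO and 0.589 FPKM in BALB/c WT. The values correspond to about 97 fragments in IL-10 KO and 3 in C57BL/6J WT, and to 82 in Rag2 KO and 14 in BALB/c WT. The KO libraries stood close to each other and far above both wild types. On log2(FPKM + 1) the ratios were 2.35 and 1.52, which understates so low a gene: the fold of FPKM was 33.7 with a counting interval of 11.2 to 166 for IL-10 KO, and 6.02 (3.39 to 11.5) for Rag2 KO. The first of these folds rests on the 3 fragments of C57BL/6J WT.

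Other Fc receptor genes were looked at beside it. Of 7 in the list, 5 passed the filter in the IL-10 comparison and 4 of them were at least 2-fold higher, and 2 of the 4 that passed in the Rag2 comparison were higher. Of those higher, 2 of the 4 passed through the IL-10 KO library alone and 1 of the 2 through the Rag2 KO library alone. Of all genes tested, 10.1% and 4.42% were at least 2-fold higher in these comparisons. Fcgr4, an activating IgG receptor gene of mouse monocytes and neutrophils, had 24.1 FPKM in IL-10 KO and 0.439 FPKM in C57BL/6J WT, and 10.5 FPKM in Rag2 KO and 0.962 FPKM in BALB/c WT. Fcgr3 had 42.7 FPKM in IL-10 KO and 3.79 FPKM in C57BL/6J WT, and 10.98 FPKM in Rag2 KO and 3.50 FPKM in BALB/c WT. Fcgr2b, the inhibitory receptor gene, had ratios of 2.84 and 0.57. Fcgrt, which encodes the neonatal Fc receptor and is active in many cell types, was lower in IL-10 KO with 124 FPKM against 180.5 FPKM (-0.54). Of the mast cell receptor genes, Ms4a2 was listed at 0 in all 4 libraries and Fcer1a in 3 of them. A value of 0 in these files need not mean silence, because Gapdh had 0.349 FPKM or less in every library.

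Itgam (chromosome 7, 128062640 to 128118491) encodes CD11b, the alpha chain of complement receptor 3 on monocytes, macrophages and neutrophils. It had 22.6 FPKM in IL-10 KO and 0.946 FPKM in C57BL/6J WT, and 8.37 FPKM in Rag2 KO and 2.22 FPKM in BALB/c WT. The log2 ratios were 3.60 and 1.54, and the folds of FPKM 23.9 (17.2 to 34.2) and 3.77 (3.01 to 4.76). Itgb2, the beta chain that pairs with it, had 47.5 FPKM in IL-10 KO and 3.32 FPKM in C57BL/6J WT, and 15.2 FPKM in Rag2 KO and 6.80 FPKM in BALB/c WT. The other alpha chain genes Itgax (CD11c) and Itgal (CD11a) had ratios of 2.86 and 3.13 for IL-10 KO and of 1.19 and 1.34 for Rag2 KO. Icam1, a ligand of these integrins that stromal cells make, was abundant everywhere, with 870 FPKM in IL-10 KO, 719.6 in C57BL/6J WT, 1053 in Rag2 KO and 722 in BALB/c WT.

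Csf1r (chromosome 18, 61105572 to 61131139) encodes the receptor on which most macrophages depend for survival. It had 41.0 FPKM in IL-10 KO and 6.77 FPKM in C57BL/6J WT, and 18.8 FPKM in Rag2 KO and 12.9 FPKM in BALB/c WT. Its ratio was 2.44 for IL-10 KO and 0.51 for Rag2 KO, where it did not reach 2-fold. The corresponding folds were 6.06 (5.24 to 7.03) and 1.46 (1.29 to 1.64). Its ligand genes did not follow it: Csf1 had 129.98 FPKM in IL-10 KO and 138 FPKM in C57BL/6J WT, and 153 FPKM in Rag2 KO and 117 FPKM in BALB/c WT. Il34, the second ligand, had 9.998 FPKM in IL-10 KO and 14.7 FPKM in C57BL/6J WT, and 39.1 FPKM in Rag2 KO and 36.3 FPKM in BALB/c WT, so it separated the strains rather than the genotypes.

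Cx3cr1 (chromosome 9, 120048683 to 120068296) encodes the fractalkine receptor of monocytes and mature gut macrophages. It was low in all 4 libraries, with 2.197 FPKM in IL-10 KO and 0.877 FPKM in C57BL/6J WT, and 2.11 FPKM in Rag2 KO and 1.20 FPKM in BALB/c WT. It was the one member below 2-fold in the IL-10 comparison (log2 ratio 0.77), with 0.50 in the Rag2 comparison. Without the added 1, its folds were 2.51 (1.58 to 4.08) and 1.76 (1.19 to 2.64). The gene of its ligand, Cx3cl1, had 14.6 FPKM in IL-10 KO and 6.78 FPKM in C57BL/6J WT, and 12.2 FPKM in Rag2 KO and 6.42 FPKM in BALB/c WT.

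Cd68 and Lyz2 encode proteins of the phagocyte's lysosome and granules, and they behaved differently. Cd68 (chromosome 11, 69664213 to 69666170), a lysosomal membrane glycoprotein gene, had 33.8 FPKM in IL-10 KO and 15.6 FPKM in C57BL/6J WT, and 22.04 FPKM in Rag2 KO and 23.3 FPKM in BALB/c WT. Its ratios were 1.07 and -0.08, and the Rag2 KO fold of 0.946 had a counting interval of 0.783 to 1.14, which includes no difference. Lyz2 (chromosome 10, 117277541 to 117282272), the lysozyme of myeloid cells, had 455 FPKM in IL-10 KO and 65.2 FPKM in C57BL/6J WT, and 296 FPKM in Rag2 KO and 135 FPKM in BALB/c WT. Its ratios were 2.79 and 1.13, and it was the most abundant of the 9 genes in every library. The neighbouring paralog Lyz1, the lysozyme of Paneth cells, had 4.50 FPKM in IL-10 KO and 1.19 FPKM in C57BL/6J WT, and 5.36 FPKM in Rag2 KO and 2.56 FPKM in BALB/c WT. How reads shared by these similar genes were split is not given in the sources used here, so the smaller Lyz1 values are uncertain.

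Lysosomal genes in general were near 1-fold. Of 12, only Ctss reached 2-fold in either KO comparison, with 157 FPKM in IL-10 KO and 15.5 FPKM in C57BL/6J WT, and 78.7 FPKM in Rag2 KO and 27.7 FPKM in BALB/c WT. Ctss encodes cathepsin S, a protease of antigen-presenting cells. Among all genes tested, 10.1% were at least 2-fold higher in IL-10 KO and 4.42% in Rag2 KO. The median of the 12 was 0.23 for IL-10 KO and 0.19 for Rag2 KO. Psap, the most abundant, had 820 FPKM in IL-10 KO and 685 FPKM in C57BL/6J WT, and Ctsl had 387 and 512 FPKM in the same libraries.

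Ptprc (chromosome 1, 138062859 to 138175756) encodes CD45, the phosphatase by which the sort left leukocytes out. Its transcript had 43.1 FPKM in IL-10 KO and 3.34 FPKM in C57BL/6J WT, and 11.5 FPKM in Rag2 KO and 8.31 FPKM in BALB/c WT. The ratios were 3.35 and 0.43, the greatest gap between the 2 KO comparisons among the 9 genes (2.92 on the log2 scale), followed by Tyrobp (2.64) and Itgam (2.06). For Cx3cr1 the gap was 0.27. The gap of Fcgr1 depends on the added 1: it was 0.84 with it and 2.48 without, where Ptprc had 3.22, Tyrobp 2.71 and Itgam 2.66. These differences between comparisons were not tested, as each comparison has 1 library a side.

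**Figure D2:**
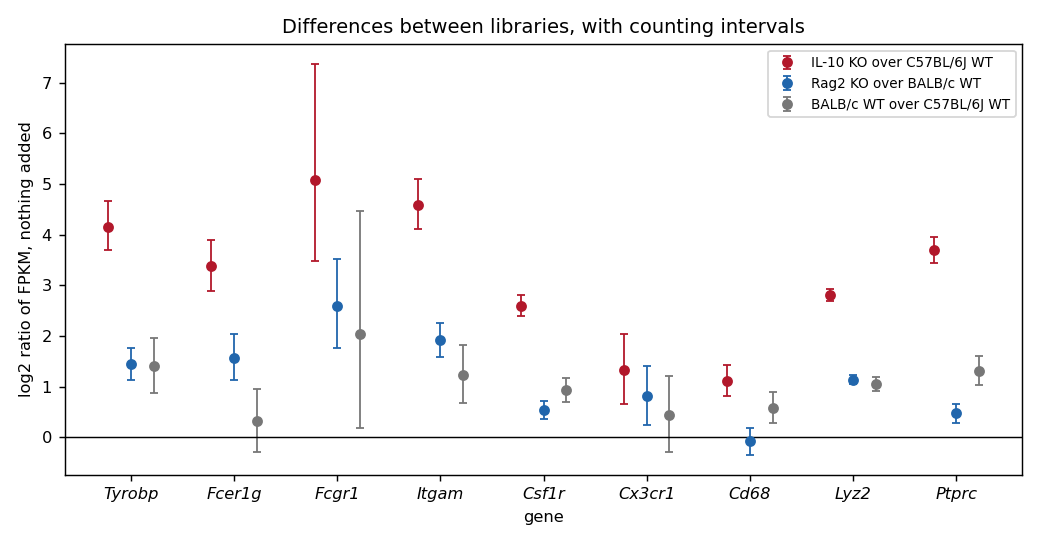
Log2 ratio of FPKM with nothing added, for the 9 genes in 3 comparisons, each of 1 library against 1. Bars are exact 95% counting intervals. The IL-10 KO ratios lie above 1 for each gene, while for the Rag2 KO comparison the interval of Cd68 spans 0.

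The wild types also differed. BALB/c WT was above C57BL/6J WT for all 9 genes, with ratios between 0.23 (Cx3cr1) and 1.34 (Tyrobp). Tyrobp, Ptprc (1.10) and Lyz2 (1.03) were at least 2-fold higher in BALB/c WT, against 1.81% of the 12290 genes tested, and 0 were lower (2.17%). Fcgr1 did not pass the filter there, and Itgam and Cx3cr1 passed through the BALB/c WT library alone. The median over the 9 genes was 0.73, against 0.0044 over all genes tested. This comparison shares a library with each KO comparison, so a low C57BL/6J WT library raises the ratios of both comparisons it enters. With BALB/c WT in place of C57BL/6J WT, a choice made after the data had been seen, 7 of 9 genes were at least 2-fold higher in IL-10 KO. Of all genes, 1377 were then at least 2-fold higher and 551 lower, against 1297 and 488 with C57BL/6J WT. Cd68 then had a ratio of 0.52, Tyrobp 2.72 and Ptprc 2.24, with strain, genotype and sex-linked transcripts no longer separable.

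Set against Ptprc within each library, the members no longer moved together. Per FPKM of Ptprc, Csf1r stood at 0.951 in IL-10 KO and 2.03 in C57BL/6J WT, and at 1.63 in Rag2 KO and 1.55 in BALB/c WT. Cd68 was lower in both, at 0.783 in IL-10 KO and 4.67 in C57BL/6J WT, and at 1.91 in Rag2 KO and 2.80 in BALB/c WT. For Lyz2 the quotients were 10.6 in IL-10 KO and 19.5 in C57BL/6J WT, but 25.7 in Rag2 KO and 16.2 in BALB/c WT. Itgam was the reverse of Cd68, at 0.525 in IL-10 KO and 0.284 in C57BL/6J WT, and at 0.725 in Rag2 KO and 0.267 in BALB/c WT. Tyrobp, at 5.29 in IL-10 KO and 3.83 in C57BL/6J WT, and 7.99 in Rag2 KO and 4.08 in BALB/c WT, was higher per Ptprc in both KO libraries as well. Fcer1g stood at 2.32 in IL-10 KO and 2.89 in C57BL/6J WT, and at 3.10 in Rag2 KO and 1.45 in BALB/c WT, and Cx3cr1 at 0.0510 in IL-10 KO and 0.263 in C57BL/6J WT, and at 0.183 in Rag2 KO and 0.144 in BALB/c WT. Fcgr1 stood at 0.112 in IL-10 KO and 0.0432 in C57BL/6J WT, and at 0.308 in Rag2 KO and 0.0709 in BALB/c WT, but on log2(FPKM + 1) its IL-10 KO value relative to Ptprc was lower than that of C57BL/6J WT (-0.99). In the Rag2 comparison 7 of the 8 quotients were above that of BALB/c WT, with Cd68 as the exception.

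Lymphocytes carry Ptprc too, and their markers moved in opposite directions in the 2 KO libraries. T cell markers summed to 110 FPKM in IL-10 KO and 9.54 FPKM in C57BL/6J WT, with 9 of the 10 that passed at least 2-fold higher (6 of the 10 passed through IL-10 KO alone). In Rag2 KO they summed to 6.24 FPKM and in BALB/c WT to 21.2 FPKM, with 4 of 9 lower and Cd3g and Cd5 listed at 0 in Rag2 KO. B and plasma cell markers were lower for 9 of 10 in Rag2 KO and higher for 8 of 10 in IL-10 KO, 2 of these 8 passing through IL-10 KO alone. In the Rag2 comparison, only 4 of the 9 T cell markers and 2 of the 10 B and plasma cell markers reached 1 FPKM in both libraries. The others passed through BALB/c WT alone, so the counts of lower genes follow in part from the filter. Among all genes tested, 10.1% were at least 2-fold higher in IL-10 KO and 2.03% lower in Rag2 KO. The part of lymphocytes in the Ptprc quotients was not tested.

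**Figure D3:**
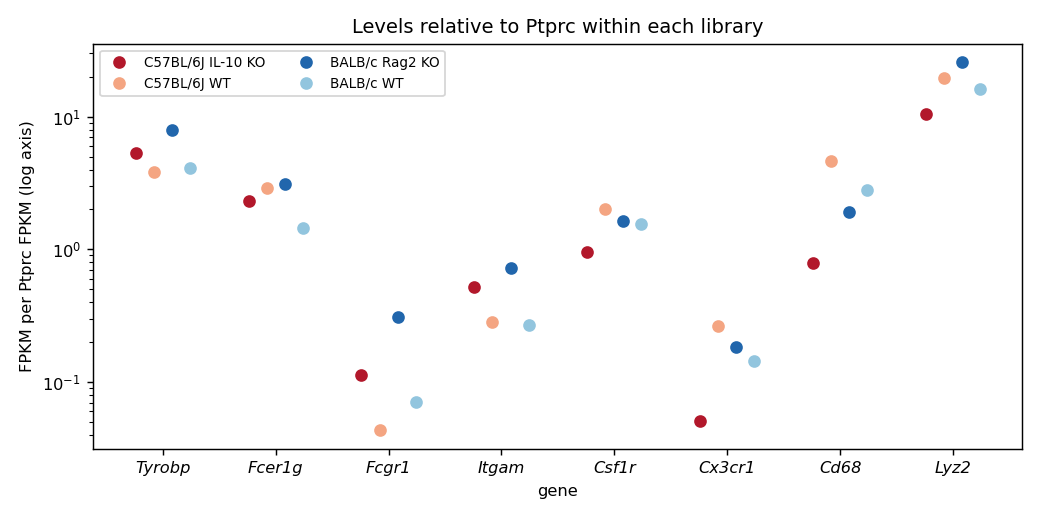
FPKM of 8 genes divided by the FPKM of Ptprc in the same library (log axis). Points are single libraries. Itgam and Fcgr1 lie higher in both KO libraries than in their wild types (for Fcgr1 in IL-10 KO not on log2(FPKM + 1)), and Cd68 lower, as at 0.783 in IL-10 KO and 4.67 in C57BL/6J WT.

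Genes of resident macrophages and of inflammatory monocytes differed in how they accompanied the members. Of 16 resident macrophage genes, 11 passed the filter in the IL-10 comparison and 6 of them were at least 2-fold higher in IL-10 KO, with a median of 1.504. In the Rag2 comparison 14 passed, 1 (Aif1) was higher, and the median was 0.08. Over all 16 resident genes, those below the filter included, the medians were 0.52 for IL-10 KO and 0.03 for Rag2 KO. Of 14 monocyte and inflammatory genes, all passed in the IL-10 comparison with 11 higher and a median of 2.95, and 10 of the 13 that passed were higher in Rag2 KO with a median of 1.98. Of the 11 inflammatory genes higher in IL-10 KO, 5 passed through that library alone, and of the 10 in Rag2 KO, 3 did. The shares of all genes tested that were at least 2-fold higher were 10.1% in IL-10 KO and 4.42% in Rag2 KO. On log2(FPKM + 1), no gene of either list was at least 2-fold lower in a KO library, where 3.82% (IL-10 KO) and 2.03% (Rag2 KO) of all genes tested were. This count depends on the added 1: Folr2 had a log2 ratio of -0.94 for IL-10 KO. With nothing added to FPKM, Folr2 was more than 2-fold lower in IL-10 KO than in C57BL/6J WT.

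The complement genes C1qa, C1qb and C1qc, which resident macrophages make in quantity, were the most abundant of the first list, while Aif1 had its highest ratios (2.64 and 1.53). C1qa had 99.7 FPKM in IL-10 KO and 18.2 FPKM in C57BL/6J WT, and 61.3 FPKM in Rag2 KO and 37.5 FPKM in BALB/c WT. Emr1, which encodes the antigen F4/80, had 15.6 FPKM in IL-10 KO and 2.30 FPKM in C57BL/6J WT, and 7.26 FPKM in Rag2 KO and 4.49 FPKM in BALB/c WT. Folr2, a folate receptor gene of long-lived resident macrophages, was lower in both KO libraries, though by less than 2-fold on this scale, with 1.49996 FPKM in IL-10 KO and 3.80 FPKM in C57BL/6J WT, and 2.72 FPKM in Rag2 KO and 4.71 FPKM in BALB/c WT. Mertk and Cd163, chosen after their values were seen, had log2 ratios of -0.66 and -0.24 for IL-10 KO and of -0.15 and -0.35 for Rag2 KO. Cd163 did not pass the filter in the IL-10 comparison, and passed in the Rag2 comparison through BALB/c WT alone (1.41 FPKM against 0.883). Mrc1 and Pf4, chosen likewise, had ratios of 0.71 and 0.26 for IL-10 KO and of 0.05 and -0.31 for Rag2 KO.

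Among the inflammatory genes, Clec4e, a receptor for microbial glycolipids that signals through Fcer1g, had 59.7 FPKM in IL-10 KO and 0.594 FPKM in C57BL/6J WT, and 21.4 FPKM in Rag2 KO and 1.26 FPKM in BALB/c WT. Trem1, which signals through Tyrobp, had 22.1 FPKM in IL-10 KO and 0.203 FPKM in C57BL/6J WT, and 5.38 FPKM in Rag2 KO and 0.249 FPKM in BALB/c WT. Cd14, a co-receptor for lipopolysaccharide, had 370.3 FPKM in IL-10 KO and 19.2 FPKM in C57BL/6J WT, and 127.8 FPKM in Rag2 KO and 31.7 FPKM in BALB/c WT. Il1b, the gene of interleukin 1 beta, had 511 FPKM in IL-10 KO and 32.3 FPKM in C57BL/6J WT, and 236 FPKM in Rag2 KO and 30.5 FPKM in BALB/c WT. Plac8 was abundant in all libraries and did not reach 2-fold in either, with ratios of 0.58 and 0.72. Which cells the transcripts of this list came from was not tested, and neutrophil markers were higher in both KO libraries too.

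Dividing by Csf1r within each library, a step chosen after the values had been seen, gave a level per macrophage receptor transcript. C1qa per Csf1r was 2.43 in IL-10 KO and 2.69 in C57BL/6J WT, and 3.27 in Rag2 KO and 2.91 in BALB/c WT. For Emr1 the quotients were 0.380 in IL-10 KO and 0.339 in C57BL/6J WT, and 0.387 in Rag2 KO and 0.348 in BALB/c WT. These quotients were nearly level across the 4 libraries, but some other resident genes were lower per Csf1r in IL-10 KO. C1qc was at 0.619-fold of C57BL/6J WT, Mrc1 at 0.310-fold, Pf4 at 0.202-fold, Mertk at 0.0957-fold and Folr2 at 0.0652-fold. C1qb was at 0.851-fold, and Aif1 was higher, at 1.39-fold (2.25-fold in Rag2 KO). Csf1r itself was 6.06-fold higher in IL-10 KO, and C1qc, Mrc1 and Pf4 were not lower in FPKM there (log2 ratios 1.86, 0.71 and 0.26). Itgam per Csf1r was 0.552 in IL-10 KO and 0.140 in C57BL/6J WT, and 0.446 in Rag2 KO and 0.172 in BALB/c WT. Fcgr1 per Csf1r was 0.118 in IL-10 KO and 0.0213 in C57BL/6J WT, and 0.189 in Rag2 KO and 0.0457 in BALB/c WT. Both were thus higher per Csf1r in either KO library than in either wild type, as was Cd14, at 9.03 in IL-10 KO, 2.83 in C57BL/6J WT, 6.81 in Rag2 KO and 2.46 in BALB/c WT. Of the 11 resident genes that passed, 0 had a quotient over 2-fold higher in IL-10 KO and 4 were under 0.5-fold, with a median of 0.601. Of the 14 inflammatory genes the quotients went both ways in IL-10 KO, with 7 over 2-fold and 4 under 0.5-fold, among them Plac8 at 0.247-fold. Only 8 of these 14 reached 1 FPKM in both libraries, and of those 2 (Cd14 and Il1b) were over 2-fold and 3 under 0.5-fold. In Rag2 KO, 1 of 14 resident genes was over 2-fold and 3 under 0.5-fold, while 10 of 13 inflammatory genes were over 2-fold and 0 under, or 7 of the 10 that reached 1 FPKM in both libraries. A gene with a smaller fold than Csf1r is lower in such quotients, whichever cells express it. Of the quotients of lysosomal genes, which fibroblasts also express, 11 of 12 were under 0.5-fold in IL-10 KO and 0 of 12 in Rag2 KO.

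**Figure D4:**
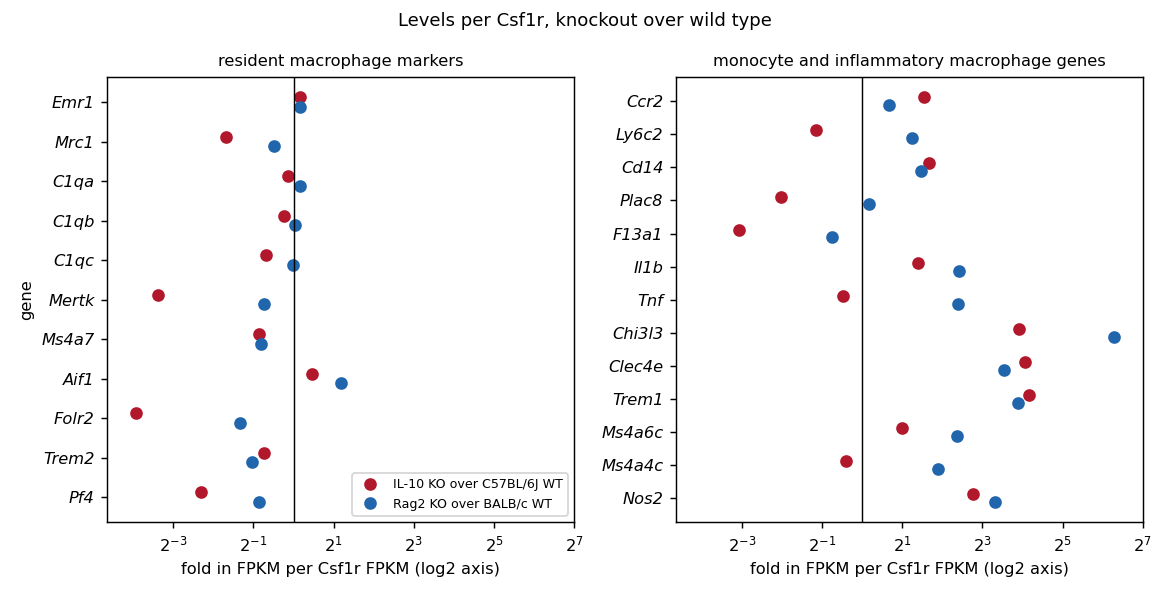
Fold, KO over wild type, of FPKM per Csf1r FPKM (log2 axis) for the genes of both lists that passed the filter in both KO comparisons. Each point compares 1 library with 1. C1qa, C1qb and Emr1 lie near 1, while Clec4e and Trem1 lie far to the right in both comparisons, over low wild-type values. Clec4e had 0.594 FPKM in C57BL/6J WT, and Trem1 had 0.203 FPKM in C57BL/6J WT and 0.249 FPKM in BALB/c WT, all below the filter of 1 FPKM.

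Genes that act with the members were taken from lists by function. All 14 genes of ITAM signalling were at least 2-fold higher in IL-10 KO (median 2.201), 5 of them passing through that library alone, and 3 of the 13 that passed were higher in Rag2 KO (median 0.34). Syk, the kinase that binds phosphorylated ITAMs, had 30.9 FPKM in IL-10 KO and 3.69 FPKM in C57BL/6J WT, and 11.2 FPKM in Rag2 KO and 8.75 FPKM in BALB/c WT. Fgr (1.36), which encodes a kinase of myeloid cells, and the adaptor gene Lcp2 (1.25) were among those higher in Rag2 KO. Fgr, with 0.927 FPKM in BALB/c WT, passed the filter through the Rag2 KO library alone. Over all genes tested, 10.1% were at least 2-fold higher in IL-10 KO and 4.42% in Rag2 KO. Of 10 receptor genes whose products pair with DAP12, 7 of the 9 that passed were higher in IL-10 KO and 4 of 7 in Rag2 KO. All 9 passed the filter through the IL-10 KO library alone, and 6 of the 7 through the Rag2 KO library alone, so the counts follow in part from the filter. Among them was Trem3 with 6.06 FPKM in IL-10 KO and 1.57 FPKM in Rag2 KO and listed at 0 in both wild types. Trem2, a receptor of lipid-handling macrophages, had ratios of 0.93 and -0.27.

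The other colony-stimulating factor and interleukin 3 receptor genes were all at least 2-fold higher in IL-10 KO (5 of 5), and 2 of 5 were in Rag2 KO. Csf3r, counted in both, passed the filter through the KO library alone each time. Of all genes tested, 10.1% and 4.42% were at least 2-fold higher. Csf3r, the receptor gene of neutrophils for G-CSF, had 24.4 FPKM in IL-10 KO and 0.102 FPKM in C57BL/6J WT, and 8.13 FPKM in Rag2 KO and 0.445 FPKM in BALB/c WT. Of 10 myeloid transcription factor genes, 2 were at least 2-fold higher in IL-10 KO (median 0.14) and 1 in Rag2 KO (median -0.10). Sfpi1, the older symbol of Spi1, encodes PU.1, the factor that specifies the lineage, and had 48.2 FPKM in IL-10 KO and 4.37 FPKM in C57BL/6J WT, and 18.2 FPKM in Rag2 KO and 7.93 FPKM in BALB/c WT. Cebpb had 308 FPKM in IL-10 KO and 301 FPKM in C57BL/6J WT, and Klf4 559.5 and 569 FPKM. In C57BL/6J WT, where Ptprc had 3.34 FPKM, both stood far above it, whereas Ikzf1 had 0.487 FPKM. Ikzf1, counted as higher in IL-10 KO, passed the filter through that library alone. The part of the sorted stromal cells in the values of this list was not tested.

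Neutrophil markers were higher in both KO libraries, as most members were. Neutrophil markers summed to 3889 FPKM in IL-10 KO and 10.8 FPKM in C57BL/6J WT, and to 247 FPKM in Rag2 KO and 25.1 FPKM in BALB/c WT. Of the 12, 11 passed in the IL-10 comparison, 8 of them through the IL-10 KO library alone, and the 3 others were at least 2-fold higher. In the Rag2 comparison 6 passed, 2 of them through the Rag2 KO library alone, and the 4 others were higher. For all genes tested, the shares at least 2-fold higher were 10.1% in IL-10 KO and 4.42% in Rag2 KO. S100a8, a calprotectin subunit, had 1624 FPKM in IL-10 KO and 0.621 FPKM in C57BL/6J WT, and 75.1 FPKM in Rag2 KO and 3.81 FPKM in BALB/c WT. Cxcr2, Ngp, Camp, Mmp8 and Elane were listed at 0 in C57BL/6J WT, Cxcr2 also in BALB/c WT, and Elane also in Rag2 KO and BALB/c WT. Neutrophils express Tyrobp, Fcer1g, Itgam and Lyz2, and their part in these values was not tested. Nor was their part in the values of the monocyte and inflammatory list tested, per Csf1r or otherwise.

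Pan-leukocyte genes followed Ptprc: 12 of 13 were at least 2-fold higher in IL-10 KO (median 2.91), and in Rag2 KO 0 were higher and 2 lower (Ptprcap and Cd37), with a median of 0.28. Of the 12, 2 passed the filter through the IL-10 KO library alone. Over all genes tested, 10.1% were at least 2-fold higher in IL-10 KO, and 4.42% were higher and 2.03% lower in Rag2 KO. Epithelial markers, of cells the sort also left out, were higher in both KO libraries, for 12 of 12 genes in IL-10 KO and 11 of 12 in Rag2 KO (2 of the 11 passed through Rag2 KO alone). They summed to 434 FPKM in IL-10 KO and 117 FPKM in C57BL/6J WT, and to 177 FPKM in Rag2 KO and 56.6 FPKM in BALB/c WT. Blood endothelial markers had medians of 0.07 and -0.02 and fibroblast markers of -0.27 and -0.10. The part of cells carried through the sort in the values of the 9 genes was not tested.

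**Figure D5:**
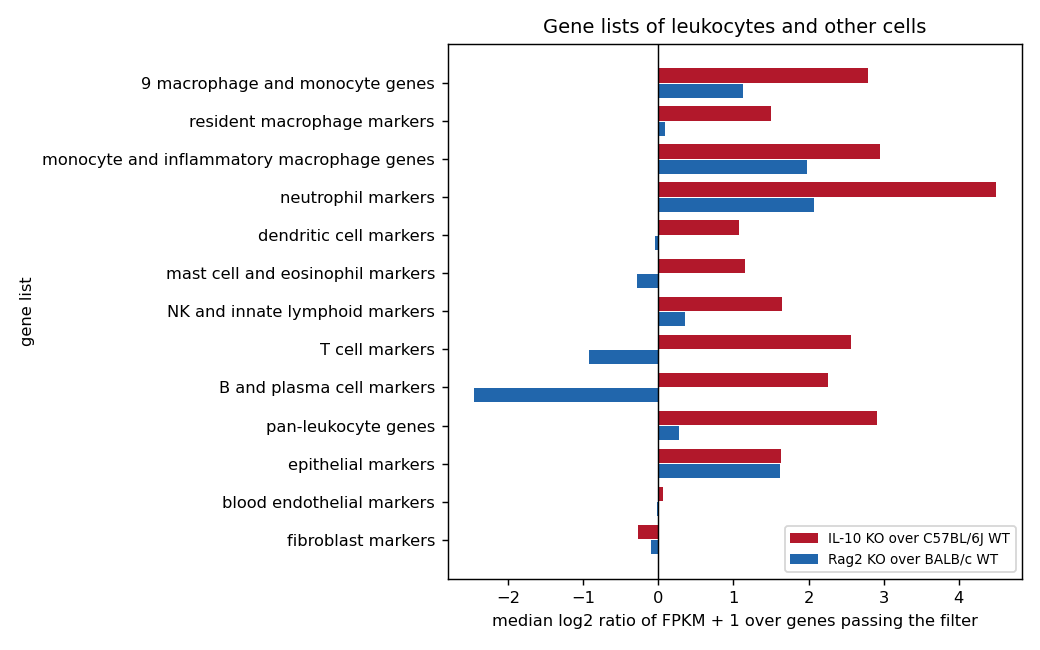
Median log2 ratio of FPKM + 1 over the genes of each list that passed the filter, for IL-10 KO over C57BL/6J WT and Rag2 KO over BALB/c WT. Bars start at 0. The 9 genes have medians of 2.79 and 1.13, resident macrophage markers 1.504 and 0.08, and T cell and B cell lists take opposite signs in the 2 comparisons. Over all listed genes, passed or not, resident macrophage markers had 0.52 and 0.03, and neutrophil markers 4.01 and 0.66.

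Genes with the most similar course over the 4 libraries were ranked by the Euclidean distance of their centred log2(FPKM + 1) to the mean of the 9 genes. Among 8784 candidates with at least 5 FPKM in some library the nearest was Ptpn6, the phosphatase SHP-1 of blood cells, at a distance of 0.149. It had 15.1 FPKM in IL-10 KO and 1.44 FPKM in C57BL/6J WT, and 6.32 FPKM in Rag2 KO and 3.32 FPKM in BALB/c WT. Ly6i, Ly86, Itgax, Slfn1, Cd7, Myo1f, Pld4 and Runx3 were among the next, Runx3 at 0.278. Among the 9 themselves Csf1r (0.335) and Lyz2 (0.365) were nearest to the mean, with 20 and 28 other genes nearer, and Cd68 (1.32) was farthest of the 7 that reached 5 FPKM. With 4 libraries the ranking is loose, since 93 candidates had a Pearson correlation above 0.99 with the mean.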

How the data were processed

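Each of the 4 libraries came as 1 table of FPKM for 23284 gene symbols, deposited by the authors. Libraries were made with a stranded mRNA kit, per the labels' protocols. Cuffdiff 2.2.1, TopHat2 2.1.1, SAMtools 0.1.18 and Bowtie2 2.2.8 were used with mm10, per the submitters' processing notes. Which annotation, strand option and scaling between libraries went into them is not given in the sources used here.

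FPKM were used as log2(FPKM + 1). A gene entered a comparison with at least 1 FPKM in either library, and was counted as apart at 2-fold or more. No test was possible with 1 library per group, and no p-value is given. Depth was estimated from the whole-fragment steps of low FPKM values, within 3% of a step, over transcripts of at least 1000 nt. Fragment intervals (95%, exact) rest on that estimate and cover counting error only. The counting step was tested on simulated data. Python 3.11.15, pandas 2.3.3, NumPy 2.4.6, SciPy 1.17.1 and matplotlib 3.10.9 were used. Positions and upstream sequences are RefSeq's on GRCm38.p6.

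The 9 genes and 22 gene lists (220 of 220 entries found) were chosen with earlier results of these data known. Besides the 9, genes were named by rule: per list the 3 most abundant and the 3 with the largest ratio in each KO comparison, the 10 nearest profiles, the sort genes, Il10 and Rag2. Mertk, Cd163, Mrc1, Pf4, Xist, Ddx3y, Gapdh and genes named for being listed at 0 were chosen after their values were seen. Alternatives were other pseudocounts, filters, scalings and folds, and removal of small RNA rows. Some genes and patterns that the rule would name are not reported here.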

Additional observations from a re-analysis of the deposited data

Results flagged for a closer look

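Cd68 took opposite signs in the 2 KO comparisons, with a log2 ratio of 1.069 for IL-10 KO over C57BL/6J WT and of -0.0773 for Rag2 KO over BALB/c WT. The difference was not tested, since each side is 1 library, and the second ratio lies within counting error of 0.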

How the results depend on the processing

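No paired analysis was possible because each group has 1 library, and for the same reason no replicate could be left out. Genes at least 2-fold apart numbered 1785 in the IL-10 comparison, 796 in the Rag2 comparison and 490 between wild types, and members 8, 5 and 3. With a pseudocount of 5 these were 793, 346 and 160 genes, members numbered 3 in the Rag2 comparison and 1 between wild types, and list genes 24 (from 59) and 5 (from 25). With 0.1 the Rag2 and wild-type comparisons had 1312 and 929 genes. At 4-fold the counts were 540, 184 and 88 genes, and 0 members in the Rag2 and wild-type comparisons. A filter of 5 FPKM left 310 genes between wild types. Scaling to the median fibroblast marker shifted the median of all genes by 0.63, 0.37 and 0.35 and gave 3030 genes in the IL-10 comparison (2895 higher, 135 lower) and 1289 in the Rag2 comparison (1170 higher, 119 lower), and between wild types 431 higher and 142 lower, against 223 and 267. Under that scaling Cd68 in the Rag2 comparison was 0.33, below the shift of all genes. Without small RNA rows Lyz2 in the Rag2 comparison was 0.99, and Cd68 in the IL-10 comparison 0.94, which left 7 members. With a pseudocount of 5, Cd68 (0.91) and Fcgr1 (0.94) fell short there, which left 6. Without a pseudocount Fcgr1 relative to Ptprc reversed to 1.38 for IL-10 KO (from -0.99) and to 0.72 for BALB/c WT over C57BL/6J WT (from -0.63). Of the 10 nearest genes, 1 was among the 10 by Pearson correlation. The causes were not tested. Of 135 member ratios under other settings, 107 kept within counting error, 27 moved and 1 changed sign. About 3 fragments of Fcgr1 in C57BL/6J WT limit its fold.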

Other observations

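Among other leukocyte groups, dendritic cell markers summed to 59.5 FPKM in IL-10 KO and 12.7 FPKM in C57BL/6J WT, with 5 of the 9 that passed at least 2-fold higher (5 of the 9 passed through IL-10 KO alone), and to 16.2 FPKM in Rag2 KO and 20.7 FPKM in BALB/c WT, with 0 of 3. Ccr7, the receptor gene by which migrating dendritic cells and naive lymphocytes reach lymph nodes, had 35.4 FPKM in IL-10 KO and 4.01 FPKM in C57BL/6J WT, and 5.13 FPKM in Rag2 KO and 10.04 FPKM in BALB/c WT. Markers of natural killer and innate lymphoid cells were at least 2-fold higher for 5 of 8 genes in IL-10 KO and 2 of 7 in Rag2 KO, of which 6 of the 8 and 2 of the 7 passed through the KO library alone. The shares over all genes tested were 10.1% in IL-10 KO and 4.42% in Rag2 KO. Gzma, a granzyme gene of cytotoxic cells, had 6.04 FPKM in IL-10 KO and was listed at 0 in C57BL/6J WT, and had 7.85 FPKM in Rag2 KO and 1.65 FPKM in BALB/c WT. Of 7 mast cell and eosinophil markers that passed in the IL-10 comparison, 5 were at least 2-fold higher in IL-10 KO, such as Ccr3 (log2 ratio 2.17), and 5 of the 7 passed through that library alone. Their levels were low, with sums of 20.4 FPKM in IL-10 KO and 4.97 FPKM in C57BL/6J WT, and of 6.63 FPKM in Rag2 KO and 6.78 FPKM in BALB/c WT. Of the lysozyme family beside Lyz1 and Lyz2, Lyzl6 and Spaca3 were listed at 0 in all 4 libraries. Among the genes of the sort, Pdpn had 204 FPKM in IL-10 KO and 158 FPKM in C57BL/6J WT, and 293 FPKM in Rag2 KO and 189.6 FPKM in BALB/c WT.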
